A study of Mus musculus with 9 samples.

Results

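Squamous epithelia such as the epidermis are renewed from a basal layer whose cells express the transcription factor p63 (Trp63), the master regulator of stratified epithelial identity. Cells that leave this layer strengthen their desmosomes, the junctions in which desmogleins and desmocollins bind neighbouring cells, and finally build a cornified envelope from proteins such as involucrin that transglutaminases cross-link. The mammary gland also has p63, in its outer myoepithelial (basal) cells, whereas cells of the inner luminal layer lack it and carry the desmosomal cadherins of simple epithelia. The 10 genes described here were picked by name from 55450 gene identifiers in the count table and belong to these parts of the program. They are Trp63, the envelope and cornification genes Sprr1a, Ivl, Tgm1, Sbsn and Casp14, and the desmosomal cadherins Dsg2, Dsg3, Dsc2 and Dsc3. They were picked with their values in the 3 genotypes known, so those values are given as a description. Calls among them are counted below, but no conclusion is drawn from these calls.

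The values come from RNA sequencing of EYFP+ mammary cells sorted from adult nulliparous mice, with 3 libraries of each genotype. All mice carried K8CreERT2, a tamoxifen-inducible Cre under the Krt8 promoter that acts in luminal cells, and lsl-EYFP, a reporter that Cre switches on. Control mice had these alleles alone, LATS1/2-KO mice were in addition floxed for Lats1 and Lats2, the kinases of the Hippo pathway that hold back YAP and TAZ, and LATS1/2-Sox9-KO mice were floxed for Sox9 as well. All of them, controls included, received 2 mg of tamoxifen on each of 5 days, and glands were taken 7 days after the last dose, so each library reports cells that had Cre activity, and their progeny, early after tamoxifen. Library totals ran from 44167762 to 61967651 counts, and all 10 genes passed the filter on low counts that left 19357 genes for testing. Normalized counts were obtained by scaling each library to the mean TMM-corrected library size. A gene was called where edgeR's quasi-likelihood test gave an absolute log2 fold change above 1 and a Benjamini-Hochberg adjusted p of at most 0.05. In such bulk samples, fewer cells of a type and less RNA per cell cannot be told apart.

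The targeted genes were examined first. Lats1 had 5672, 5929 and 5940.4 normalized counts in control, 2090.1, 1923 and 2336 in LATS1/2-KO, and 2058, 1844 and 1709 in LATS1/2-Sox9-KO libraries. Lats2 did not fall, with 1039, 865 and 1219.7 in control against 1256, 1434 and 1723 in LATS1/2-KO and 1957, 1580.4 and 1239.7 in LATS1/2-Sox9-KO libraries. Sox9, which is not floxed in the LATS1/2-KO mice, was lower there too (log2 fold change -1.15, edgeR adjusted p = 0.000682, not called without LATS1/2-KO replicate 1, where it was -0.97), and between the deletion genotypes it differed by -0.40 (adjusted p = 0.250). Gene counts sum all exons and do not show whether floxed exons were lost, so the groups are named by their labels throughout. The sorted cells had high counts of a luminal keratin in every library, with Krt18, the most abundant of 10 luminal markers, between 239705 and 789495 normalized counts. Of these 10 markers, 0 were called higher and 4 lower in LATS1/2-KO and 2 higher and 7 lower in LATS1/2-Sox9-KO libraries than in control. This is 40% and 90% of them, where 34.6% and 37.4% of all genes tested were called.

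The 10 genes did not share 1 direction. In the libraries labelled LATS1/2-KO, 6 were higher than in every control library (Casp14, Sbsn, Dsg2, Dsg3, Dsc2 and Dsc3), and 4 were lower than in every control library (Trp63, Sprr1a, Ivl and Tgm1). In the libraries labelled LATS1/2-Sox9-KO the same 6 were higher without overlap and 2 were lower without overlap, Trp63 and Sprr1a. Across all genes tested, 61.6% and 68.8% had no overlap in these comparisons. By the thresholds of the fit, 5 of the 10 were called higher and 3 lower in LATS1/2-KO against control, where 34.6% of all genes tested were called, 17.1% higher and 17.5% lower. For LATS1/2-Sox9-KO against control, 6 were called higher and 2 lower, where 37.4% of all genes were called, 17.8% higher and 19.6% lower. Between the deletion genotypes 1 was called, Dsc2, which was higher, where 3.71% of all genes were called, 1.55% higher and 2.16% lower. This call was lost in 4 of the 6 fits that each left out 1 library and with the replicate number as a block. It was also lost in the fit of the 2 compared groups alone and when a fold change of 2 itself was tested. Both control comparisons share the control libraries, and since the genes were picked from these contrasts, nothing is read from their counts.

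**Figure D1:**
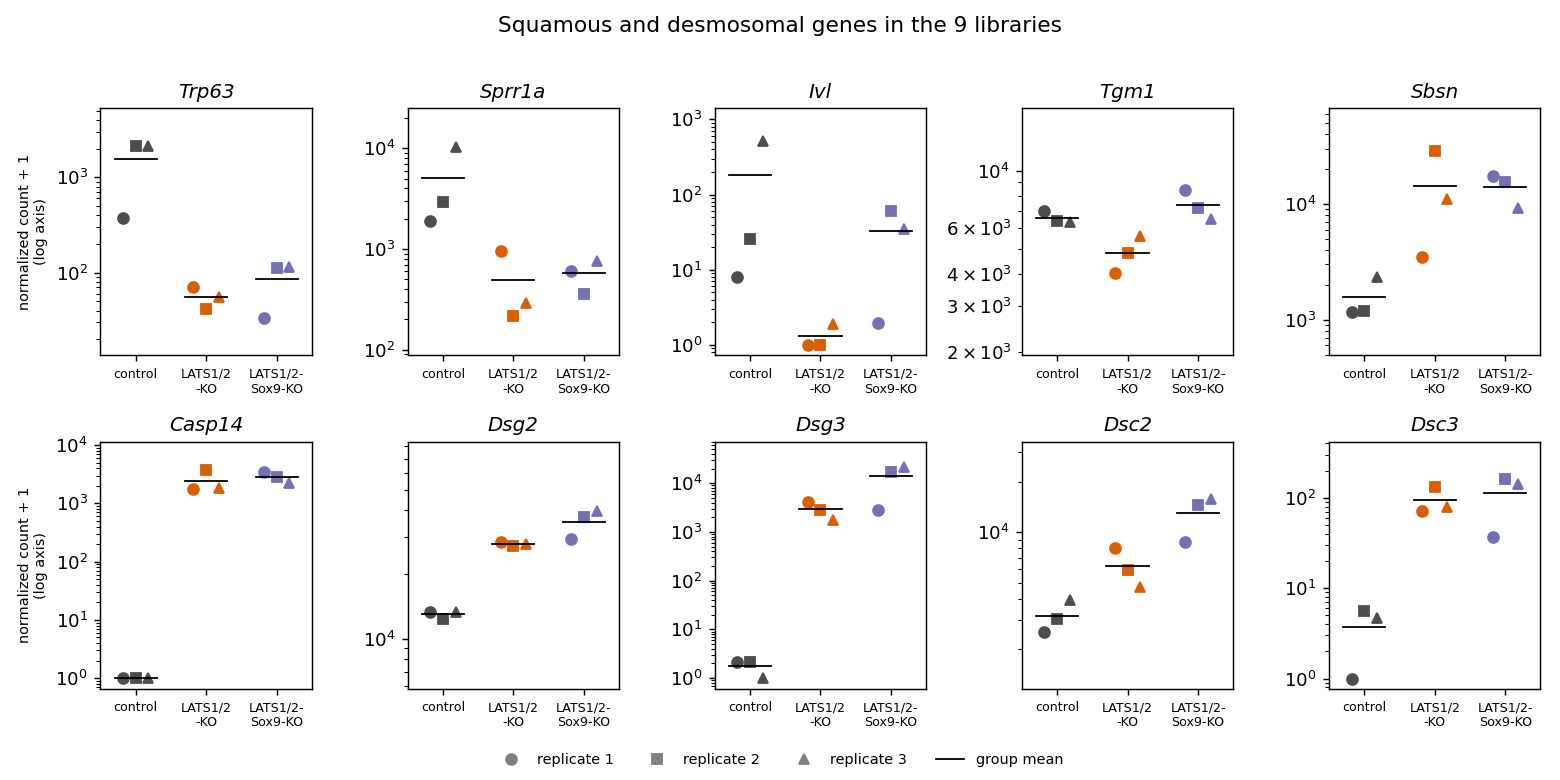
Normalized counts + 1 (log axis, a separate scale per gene) of the 10 genes in each library, by genotype, with replicates 1, 2 and 3 as circles, squares and triangles and the group mean as a line. Trp63 and Sprr1a sit highest in the control libraries, Ivl is highest in control replicate 3 alone, Casp14 and Dsg3 have 0 or 1 count in each control library, and the 3 LATS1/2-Sox9-KO libraries separate for Dsg3 with replicate 1 at 2846.

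Trp63 (ENSMUSG00000022510) lies on chromosome 16 of GRCm38 from 25683763 to 25892102. It had 373, 2153 and 2133 normalized counts in control, 70.2, 40.7 and 53.8 in LATS1/2-KO, and 32.5, 109.6 and 113.9 in LATS1/2-Sox9-KO libraries. Every deletion library lay below every control library, while control replicate 1 was the low one of its group. The log2 fold change was -4.82 (standard error 0.71) for LATS1/2-KO and -4.19 (standard error 0.69) for LATS1/2-Sox9-KO against control. Between the deletion genotypes it was 0.64 (standard error 0.65), and their libraries overlapped. A gene-level count adds the transcripts with and without the transactivating amino-terminal domain, so the isoforms were not separated.

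Trp53, which encodes the related tumor suppressor p53, was not called in LATS1/2-KO (log2 fold change -0.26, edgeR adjusted p = 0.433) or in LATS1/2-Sox9-KO libraries (0.23, adjusted p = 0.491). Trp73 had at most 8 counts in any library and was not tested. The 5 genes whose log2 CPM over the 9 libraries was most like that of Trp63, among 10566 genes ranked by Pearson's r, were Olfml3 (r = 0.98), Gstt2, Gstm4, Col6a3 and Fancg (r = 0.971). Olfml3 and Col6a3 encode proteins of the extracellular matrix, and Col6a3 had 1664, 4829 and 10599 normalized counts in control against 387, 83.0 and 127 in LATS1/2-KO libraries. The libraries fall into groups by genotype, so such an r mainly repeats the difference between control and deletion libraries.

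The 9 myoepithelial markers summed to 4740.3, 4335 and 3513 normalized counts in control, an order that Trp63 did not follow, and in the deletion libraries Krt14 made up most of a far larger sum. Several genes varied in 1 order among the control libraries. The fibroblast gene Dcn, the most abundant of 6 fibroblast markers in control, had 1626, 3291 and 8162 normalized counts in control replicates 1, 2 and 3, and all 6 fibroblast markers summed to 2336, 4173 and 9312. The skin keratin Krt77 had 27.8, 153 and 365 in the same libraries. The keratins Krt1 (47.55, 110 and 87.1) and Krt10 (209.9, 155.4 and 154.3) did not follow this order. Sprr1a and Ivl follow the order of Dcn and Krt77, with control replicate 3 highest. Trp63 stood in the order of Krt1, lowest in control replicate 1, although its replicates 2 and 3 were close. The part of other cell types in these values was not tested. The epidermal markers as a list of 9 summed to 1522, 2003 and 2438 normalized counts in control, mostly Krt15, with Krt2, Flg, Dsg1a and Dsc1 at 0.

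Sprr1a (ENSMUSG00000050359), a small proline-rich envelope precursor, lies on chromosome 3 from 92483952 to 92485895. Its control libraries had 1910.3, 2938 and 10255 normalized counts, against 955, 214 and 290.02 in LATS1/2-KO and 606, 355 and 761 in LATS1/2-Sox9-KO libraries. All deletion libraries lay below all control libraries, with a log2 fold change of -3.38 (standard error 0.74) and -3.13 (standard error 0.73). Without control replicate 3, these came to -2.34 and -2.07, and without LATS1/2-KO replicate 1 the first was -4.32. Of 15 Sprr genes listed, Sprr1a was the only one that passed the filter, and 8 had no count in any library. The Sprr genes are close copies, so read pairs that fit several of them would have been left out of counts of uniquely aligned pairs.

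Ivl (ENSMUSG00000049128), which encodes involucrin, an early scaffold of the envelope, lies close by on chromosome 3 from 92570902 to 92573735. It had 6.96, 24.95 and 513 normalized counts in control, 0, 0 and 0.91 in LATS1/2-KO, and 0.93, 59.8 and 33.7 in LATS1/2-Sox9-KO libraries. Control replicate 3 holds most of the control signal, and the LATS1/2-KO libraries held 1 count in all. The ratio of LATS1/2-KO to control counts was 0.00177 (95% counting interval 4.47e-05 to 0.00991, exact, which covers counting error only). The log2 fold change of -8.72 (standard error 2.25) came to -5.25 without control replicate 3. It came to -10.48 without LATS1/2-KO replicate 3, where the LATS1/2-KO libraries left held no count. LATS1/2-Sox9-KO libraries overlapped the controls, with a log2 fold change of -2.53 (standard error 1.41), which turned to 0.98 without control replicate 3. Their count ratio to LATS1/2-KO was 100.9 (95% exact counting interval 17.7 to 4027), carried by replicates 2 and 3, while replicate 1 held 1 count, as did LATS1/2-KO replicate 3.

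Tgm1 (ENSMUSG00000022218), the membrane-bound transglutaminase that cross-links the envelope, lies on chromosome 14 from 55700009 to 55713926. It was well expressed in every library, with 6949, 6367 and 6324 normalized counts in control, 4019.7, 4805 and 5594 in LATS1/2-KO, and 8379, 7142.5 and 6528 in LATS1/2-Sox9-KO libraries. The LATS1/2-KO libraries were below both other groups without overlap, whereas LATS1/2-Sox9-KO and control overlapped. The log2 fold changes were small, at -0.45 (standard error 0.14) for LATS1/2-KO against control, 0.17 (standard error 0.14) for LATS1/2-Sox9-KO against control, and 0.61 (standard error 0.14) between the deletion genotypes. An antisense gene, Gm49067, shares 182 exon bases with Tgm1 and had 98 counts over all libraries. The methods name same-strand counting, but the library kit does not mark strand, so reads of overlapping genes on opposite strands cannot be told apart here. Of the 6 transglutaminase genes tested, 1 was called higher and 1 lower in LATS1/2-KO, and 2 higher and 1 lower in LATS1/2-Sox9-KO libraries, which is 33.3% and 50% of them where 34.6% and 37.4% of all genes were called. The one that fell in both was Tgm2, the widely expressed tissue transglutaminase, with a log2 fold change of -2.78 (edgeR adjusted p = 3.68e-06) in LATS1/2-KO and -2.79 (adjusted p = 2.35e-06) in LATS1/2-Sox9-KO libraries.

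Sbsn (ENSMUSG00000046056), suprabasin, a secreted protein of suprabasal keratinocytes, lies on chromosome 7 from 30751471 to 30756134. It had 1159.9, 1195 and 2315 normalized counts in control, 3505, 28447 and 11049 in LATS1/2-KO, and 17483, 15422 and 9219.6 in LATS1/2-Sox9-KO libraries. All deletion libraries lay above all control libraries, but the LATS1/2-KO libraries spread 8.12-fold from lowest to highest, the widest spread in that group among members with counts in all of its libraries. The log2 fold change against control was 3.20 (standard error 0.65) for LATS1/2-KO and 3.17 (standard error 0.65) for LATS1/2-Sox9-KO, and it was -0.03 (standard error 0.60) between them. Without LATS1/2-KO replicate 2, the first came to 2.22 and the last to 0.97. The noncoding gene Tmem147os overlaps 279 exon bases of Sbsn on the same strand and had 731 counts over all libraries. Adipocyte markers (4 genes) came in the same order in the LATS1/2-KO libraries, summing to 7.0, 821 and 430.5 normalized counts, with Cidec the most abundant at 0, 394 and 209. In the LATS1/2-Sox9-KO libraries they summed to 32.5, 212 and 158.5, an order that Sbsn did not follow. Their part in the Sbsn values was not tested. Krtdap, a keratinocyte gene that neighbours Sbsn, had no count in control and at most 12 counts in any library.

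Casp14 (ENSMUSG00000005355), the caspase of the cornifying epidermis that processes filaggrin, lies on chromosome 10 from 78711991 to 78718294. No read was counted in any control library. LATS1/2-KO libraries had 1739, 3775 and 1847 normalized counts and LATS1/2-Sox9-KO libraries 3472, 2834 and 2277. Against a floor of 3 counts per control library, the mean was at least 693-fold higher in LATS1/2-KO and at least 808-fold higher in LATS1/2-Sox9-KO libraries. Between the deletion genotypes the libraries overlapped, at a log2 fold change of 0.22 (standard error 0.31). Filaggrin itself (Flg), the substrate that Casp14 is known for, had no count in any of the 9 libraries.

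The genes with a pattern most like that of Casp14 over the 9 libraries were Ankrd1, Amot and Msn (Pearson's r = 0.999 each), then Wnt7a and Pip4p2 (r = 0.998). As for Trp63, such an r mainly repeats the difference between control and deletion libraries. Ankrd1 is a widely used target gene of YAP and TAZ, and Amot encodes angiomotin, which binds YAP. Any part of YAP and TAZ in the Casp14 values was not tested. Ankrd1 had 23.2, 19.3 and 29.9 normalized counts in control, 17065, 28576 and 14760.3 in LATS1/2-KO, and 24110, 21135 and 19159 in LATS1/2-Sox9-KO libraries, and LATS1/2-KO replicate 2 was the high one for both it and Casp14. Of the 10 caspase genes tested, Casp14 included, 3 were called higher and 1 lower in LATS1/2-KO, and 4 higher and 1 lower in LATS1/2-Sox9-KO libraries, which is 40% and 50% of them where 34.6% and 37.4% of all genes were called, and the other caspase genes had smaller fold changes than Casp14. Casp9, an initiator caspase of the mitochondrial pathway, fell in both (log2 fold change -1.30, edgeR adjusted p = 0.000122, and -1.17, adjusted p = 0.000194). Casp1, which matures interleukin-1 beta, rose in both (1.19, adjusted p = 0.00149, and 2.41, adjusted p = 1.82e-05). The 8 immune markers summed to 286 to 320.1 normalized counts in control, 1824 to 3177 in LATS1/2-KO and 2982 to 4192 in LATS1/2-Sox9-KO libraries. Of these sums, Csf1r alone made up 128.1 to 207.6, 1753 to 2804 and 2716 to 3875, and the T cell gene Cd3e was at 0 throughout. The part of these markers in the caspase values was not tested.

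RefSeq promoter sequences (GRCm38.p6) were examined for a part of the 10 genes only, the 5 genes Casp14, Sbsn, Ivl, Sprr1a and Tgm1. Motifs of Trp63 and of the desmosomal cadherins, Dsg3 among them, are not given, so nothing is read about their promoters. The 250 bases before each start were searched on both strands for GGAATG, the core motif of the TEAD factors that carry YAP and TAZ. The search also took TGANTCA, the AP-1 motif common in keratinocyte genes, and AACCNGTT, bound by Grainyhead-like factors. TATAAA and 1 unit of the repeated p53-family motif, not the whole motif, were searched as well. The stretches from base -165 to base -16 are shown for the 4 genes with a match, with matched letters in capitals, because these genes did not share 1 direction.
Casp14, chr10:78718309-78718458, minus strand: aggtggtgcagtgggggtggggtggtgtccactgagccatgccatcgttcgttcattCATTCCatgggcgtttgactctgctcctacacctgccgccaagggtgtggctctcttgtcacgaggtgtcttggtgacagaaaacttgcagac
Sbsn, chr7:30751306-30751455, plus strand: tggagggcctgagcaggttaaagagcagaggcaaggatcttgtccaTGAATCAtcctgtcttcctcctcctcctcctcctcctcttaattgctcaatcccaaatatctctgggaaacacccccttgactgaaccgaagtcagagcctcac
Ivl, chr3:92573751-92573900, minus strand: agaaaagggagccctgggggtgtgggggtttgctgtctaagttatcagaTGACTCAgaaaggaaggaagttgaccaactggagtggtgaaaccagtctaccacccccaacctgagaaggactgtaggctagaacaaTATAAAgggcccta
Sprr1a, chr3:92485897-92486046, minus strand: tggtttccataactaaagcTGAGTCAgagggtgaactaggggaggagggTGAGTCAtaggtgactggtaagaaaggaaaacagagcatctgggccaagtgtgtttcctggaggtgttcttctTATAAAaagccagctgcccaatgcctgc
The Casp14 window held the TEAD letters once, at base -108 on the opposite strand. An AP-1 match stood at base -119 of Sbsn and at base -116 of Ivl, and Sprr1a held a pair of them, at -146 and -116. TATAAA stood at -29 in Ivl and at -43 in Sprr1a. None of the motifs was found at either RefSeq start of Tgm1. The Grainyhead-like letters and the p53-family unit were found in none of the 5 genes. Of 32851 promoters searched over the same length, 12.64% held the TEAD letters, 6.75% the AP-1 letters and 12.37% TATAAA. The p53-family unit stood in 7.13% of them and the Grainyhead-like letters in 1.79%. The AP-1 letters thus stand both in Sbsn, which was higher in both deletion genotypes, and in Sprr1a, which was lower in both, as well as in Ivl, which was lower without overlap in LATS1/2-KO alone.

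The 4 described cadherins had higher counts in every deletion library than in every control library. Dsg2 (ENSMUSG00000044393), the desmoglein of simple epithelia, had 13366, 12359 and 13301 normalized counts in control, 28480.1, 27339 and 27939.96 in LATS1/2-KO, and 29224.5, 37104 and 39565 in LATS1/2-Sox9-KO libraries. The 3 groups did not overlap, and the libraries within control and within LATS1/2-KO were close together. The log2 fold change was 1.10 (standard error 0.12) for LATS1/2-KO and 1.44 (standard error 0.12) for LATS1/2-Sox9-KO against control, and 0.34 (standard error 0.12) between them. All 4 cadherin genes lie in a cluster on chromosome 18. An antisense gene, Gm16090, shares 330 exon bases with Dsg2 and had 135 counts over all libraries.

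Dsg3 (ENSMUSG00000056632), the desmoglein of basal and lower suprabasal keratinocytes and the antigen of pemphigus vulgaris, was all but absent in control. Its control libraries held 1, 1 and 0 counts, against 4189, 2812 and 1780.3 normalized counts in LATS1/2-KO and 2846, 17176 and 21543 in LATS1/2-Sox9-KO libraries. Every deletion library was above every control library, and replicates 2 and 3 of LATS1/2-Sox9-KO stood far above the rest while replicate 1 fell among the LATS1/2-KO libraries. The count ratio to control was 3676 (95% exact counting interval 1017 to 30360) for LATS1/2-KO and 17610 (95% exact counting interval 4876 to 145400) for LATS1/2-Sox9-KO. Between the deletion genotypes the log2 fold change was 2.24 (standard error 0.60).

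Dsc2 (ENSMUSG00000024331), the desmocollin that simple and stratified epithelia share, had 2544, 3032 and 3925 normalized counts in control, 8086, 5979 and 4726 in LATS1/2-KO, and 8717, 14535 and 15848 in LATS1/2-Sox9-KO libraries. The 3 groups did not overlap, although LATS1/2-KO replicate 1 and LATS1/2-Sox9-KO replicate 1 were close. The log2 fold change was 0.98 (standard error 0.26) and 2.04 (standard error 0.27) against control, and 1.06 (standard error 0.26) between the deletion genotypes. Dsc3 (ENSMUSG00000059898), the desmocollin of basal keratinocytes, had 0, 4.54 and 3.73 normalized counts in control, 70.2, 131 and 77.5 in LATS1/2-KO, and 36.2, 160.4 and 142 in LATS1/2-Sox9-KO libraries. No deletion library overlapped the controls, while the deletion genotypes overlapped each other. Its log2 fold change was 5.02 (standard error 0.83) and 5.30 (standard error 0.83).

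Scaled by exon length, the make-up of the cadherins shifted. All desmogleins together came to 1582 ± 69.8 normalized counts per kb in control, 3806 ± 217 in LATS1/2-KO and 6266 ± 2059 in LATS1/2-Sox9-KO libraries (SD, n = 3). Dsg3 made up 0.0100%, 0.0110% and 0% of this sum in the control libraries. It made up 14.8%, 10.8% and 7.002% in the LATS1/2-KO and 10.3%, 35.4% and 39.1% in the LATS1/2-Sox9-KO libraries. Dsg2 was thus still the main desmoglein everywhere, at 60.7% or more of the sum in each library. Among the desmocollins, Dsc2 made up 97.9% or more in each library, and Dsc3 at most 2.10%. Dsg4, a desmoglein of the hair shaft, had no count in control and 13.9 to 41.5 normalized counts in the deletion libraries.

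**Figure D2:**
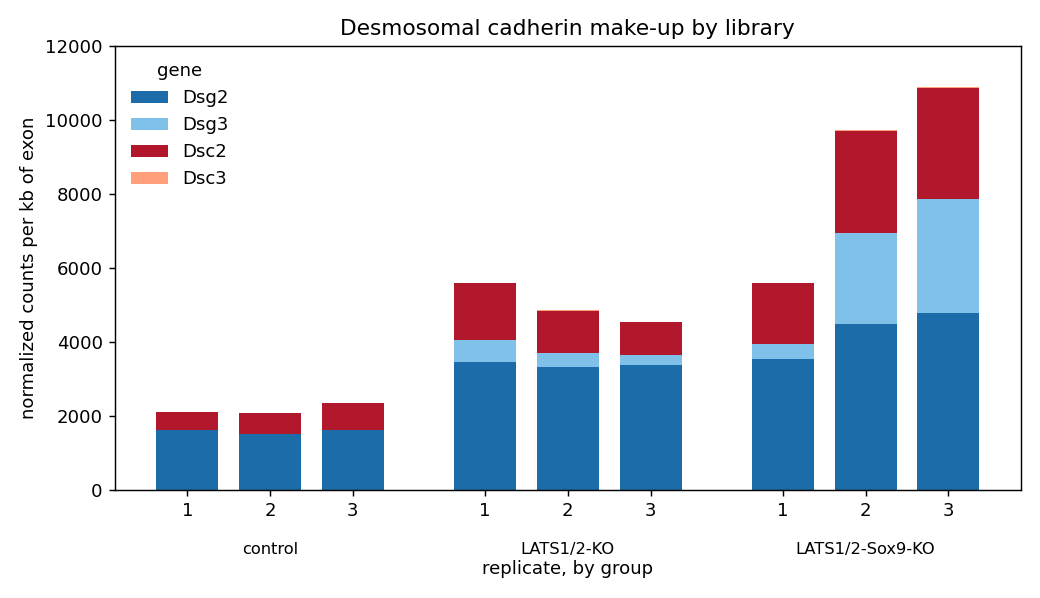
Normalized counts per kb of exon of Dsg2, Dsg3, Dsc2 and Dsc3, stacked for each of the 9 libraries, which are named by replicate within their genotype. With the rare other cadherins included, the sums are 2077 to 2370.3 in control, 4555 to 5597 in LATS1/2-KO, and 5609, 9746 and 10917 in LATS1/2-Sox9-KO libraries, where Dsg3 takes a visible share.

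Within the LATS1/2-Sox9-KO group, replicate 1 was the lowest library for Dsg2, Dsg3, Dsc2, Dsc3, Trp63 and Ivl, and the highest for Casp14, Sbsn and Tgm1. The same library was lowest for Krt14, with 117088 normalized counts against 239974 and 349679, and for Krt5, with 472.5 against 2162 and 1579, while for the basal keratin Krt15 it was the middle one, with 69.6 against 91.7 and 47.4. It was highest for luminal markers, with a sum over 10 genes of 1476432 against 1365292 and 1285293. Its adipocyte markers (4 genes, Cidec the most abundant at 0, 89.7 and 76.5) summed to 32.5, against 212 and 158.5 in the others. It was also lowest for 5 endothelial markers, with a sum of 243 against 756 and 733 (Kdr the most abundant at 133, 411.5 and 239.6). The 6 fibroblast markers summed to 2337 there against 3077 and 6012 (Col3a1 the most abundant at 1018, 1490 and 3131), and the 8 immune markers to 2982 against 3273 and 4192. Fibroblast and immune sums thus stood in the same order over the 3 libraries as Dsg2, Dsg3 and Dsc2. The part of these differences in the values of the cadherins was not tested. Without this replicate, the log2 fold change of Dsg3 between the deletion genotypes was 2.75 in place of 2.24, and Dsg3 was then called.

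Per kb of exon, the order of levels changed between genotypes. In control libraries it ran from Sprr1a (6246 ± 5646, SD, n = 3) through Tgm1 (2070.4 ± 110.3), Dsg2 (1573 ± 68.1), Dsc2 (600.2 ± 133), Sbsn (429 ± 181) and Trp63 (185 ± 122) to Ivl, with Dsc3, Dsg3 and Casp14 at or near 0. Neither Tgm1 nor Dsg2 differed from Sprr1a beyond the spread of Sprr1a, nor Dsc2 and Sbsn beyond that of Sbsn, nor Trp63 and Ivl (94.5 ± 149) beyond that of Ivl. In LATS1/2-Sox9-KO libraries Dsg2 (4269 ± 653) and Sbsn (3874 ± 1187) led and lay within their spread of each other. Dsc2 (2470 ± 719), Tgm1 (2324 ± 298) and Dsg3 (1986 ± 1402) followed, also within their spread, then Casp14 (1195 ± 249.7) and Sprr1a (712 ± 255), both also within the spread of Dsg3. Dsc3 (20.9 ± 12.4), Ivl (16.4 ± 15.3) and Trp63 (10.2 ± 5.46) came last. In LATS1/2-KO libraries the order was Sbsn (3954 ± 3529), Dsg2 (3377 ± 69.1), Tgm1 (1520.02 ± 249), Dsc2 (1187 ± 322), Casp14 (1025 ± 478), Sprr1a (603 ± 506), Dsg3 (419 ± 173), Dsc3 (17.2 ± 6.18), Trp63 (6.54 ± 1.76) and Ivl. Dsg2, Tgm1, Dsc2, Casp14 and Sprr1a all lay within the spread of Sbsn, and from Dsc2 to Dsg3 neighbours in that order lay within the larger spread of each pair.

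The 10 genes were then set beside 138 other genes of the basal layer, of spinous cells, of granular and cornified cells, and of desmosomes, of which 90 passed the filter. Genes seen only after deletion could pass through the deletion libraries alone and then only be higher, as for 3 granular, 1 spinous and 1 desmosome gene with no count in control. Scel, with 0 to 2 counts in the control libraries, is a further case. Krt1 and Krt77 reached the count of the filter in control libraries alone and could only be lower. All of these genes are kept in the counts and medians against control that follow. Those were not redone without them, so nothing is read from how many were called higher. In LATS1/2-KO against control, 29 of the 90 were called higher and 23 lower, and their median log2 fold change was 0.32 against 0.04 over all genes tested, of which 17.1% were called higher and 17.5% lower. In LATS1/2-Sox9-KO libraries 40 were called higher and 20 lower, with a median of 0.79 against 0.01, where 17.8% of all genes were called higher and 19.6% lower. Of 68 granular and cornified genes, 39 were not tested, and of the other 29, 12 were called higher and 3 lower in LATS1/2-KO, with 14 not called, and 18 higher and 2 lower in LATS1/2-Sox9-KO libraries. Genes of the basal layer and p63 went both ways, with 7 higher and 11 lower of 31, then 9 and 10. Spinous genes were 9 higher and 8 lower of 23, then 12 and 8. Other desmosome genes were 4 higher and 1 lower of 11, then 4 and 0. This is 45.5% and 36.4% of them, near the 34.6% and 37.4% of all genes called.

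**Figure D3:**
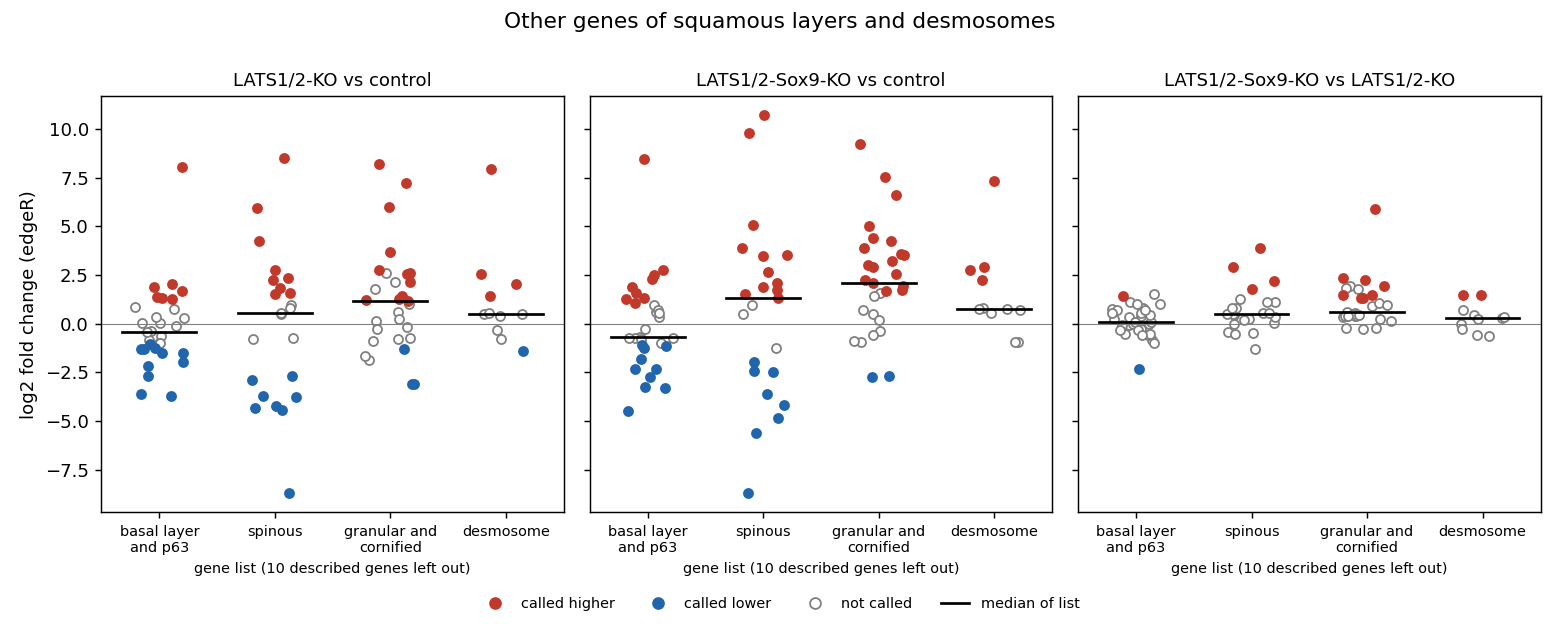
Log2 fold change (edgeR) of the tested genes of each list, the 10 described genes left out, in the 3 comparisons, with genes called higher in red, called lower in blue, not called in white, and the list median as a line. The basal, spinous, granular and desmosome lists held 31, 23, 29 and 11 tested genes. In LATS1/2-KO against control, 7, 9, 12 and 4 of them were called higher and 11, 8, 3 and 1 lower. Of all genes tested, 17.1% were called higher and 17.5% lower there. Far fewer listed genes were called between the deletion genotypes.

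The keratins of a layer did not move together. Krt14, a basal keratin, rose in both deletion genotypes (log2 fold change 8.05, edgeR adjusted p = 3.12e-06, and 8.45, adjusted p = 1.74e-06). Its partner Krt5 was not called in LATS1/2-KO (0.06, adjusted p = 0.935), and in LATS1/2-Sox9-KO it was called at 1.59 (adjusted p = 0.0298) with overlapping libraries, a call that was lost in 5 of the 6 fits that each left out 1 library, with adjusted p from 0.0527 to 0.115, and with the replicate number as a block (adjusted p = 0.0631). Krt15, another basal keratin, fell (-3.60, adjusted p = 0.00146, and -4.46, adjusted p = 0.000471), and the first was -5.12 without LATS1/2-KO replicate 1. Of the 9 spinous keratins tested, 2 were called higher and 4 lower in LATS1/2-KO, and 3 higher and 4 lower in LATS1/2-Sox9-KO libraries. Of all genes tested, 17.1% and 17.8% were called higher and 17.5% and 19.6% lower. Krt1 and Krt77, among those called lower, passed the filter through control libraries alone and could only be lower. Krt1 was lower in both (-4.31 and -5.60, the second -7.07 without LATS1/2-Sox9-KO replicate 3), as was Krt77, and no test is drawn from either. Krt13 was called lower in both, with 78 to 142 counts in control and 1 to 10 in the deletion libraries. It thus passed the filter mainly through control libraries, and its call is not read as a test. Krt10, the partner of Krt1, was not called (0.50, adjusted p = 0.0719, and 0.48, adjusted p = 0.0787). Of the keratins that follow, Krt78, Krt4, Krt6b, Krt6a and Krt80 were added after their values were seen. Krt78 fell in both (-3.70, adjusted p = 0.00665, and -4.20, adjusted p = 0.00357), with -2.52 and -2.996 without control replicate 3 and -5.35 for the first without LATS1/2-KO replicate 1. Krt4 was not called (-0.74, adjusted p = 0.322, and -1.26, adjusted p = 0.1001), but it was without control replicate 1 (-1.22, adjusted p = 0.0320, and -1.74, adjusted p = 0.00591), and it came to 0.03 and -0.47 without control replicate 3. Krt6b was not tested, at 7 to 11 counts in control and 0 to 6 in the deletion libraries. Krt6a, a keratin of activated keratinocytes with a close copy in Krt6b, rose in both (2.26, adjusted p = 0.000887, and 3.51, adjusted p = 6.41e-05), as did Krt80 (1.85, adjusted p = 0.000833, and 2.65, adjusted p = 8.95e-05). Krt16 was under the fold threshold in LATS1/2-KO (-0.81, adjusted p = 0.00559) and rose in LATS1/2-Sox9-KO libraries (2.10, adjusted p = 1.48e-05). Other basal genes that fell in both were the water channel Aqp3 (-3.72, adjusted p = 0.000169, or -4.54 without LATS1/2-KO replicate 1, and -3.27, adjusted p = 0.000283) and the growth factor receptor Fgfr2 (-2.71, adjusted p = 6.31e-06, and -3.28, adjusted p = 1.89e-06).

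Of the late genes, Lor, the main protein of the mature envelope, had 3.48, 10.2 and 58.5 normalized counts in control and 61.2 to 104.9 in the deletion libraries, above every control. It was not called (log2 fold change 1.78, edgeR adjusted p = 0.0685, in LATS1/2-KO and 1.58, adjusted p = 0.0986, in LATS1/2-Sox9-KO libraries). Without control replicate 3 it was (3.55, adjusted p = 0.000713, and 3.37, adjusted p = 0.000821), and with the replicate number as a block the adjusted p was 0.0381 and 0.0467. Of 17 late cornified envelope (Lce) genes listed, 3 passed the filter, and Lce1h had no count in control and was at least 10.2-fold higher in LATS1/2-KO and at least 21.2-fold higher in LATS1/2-Sox9-KO libraries. Cers3, the ceramide synthase of the skin lipid barrier, rose in both (3.69, adjusted p = 7.48e-06, and 5.03, adjusted p = 1.40e-06). Nipal4, an ichthyosis gene of the same barrier, also rose (2.15, adjusted p = 0.00727, and 4.39, adjusted p = 0.000100). Aloxe3, a lipoxygenase of this barrier that is likewise an ichthyosis gene, fell in both (-3.09, adjusted p = 8.52e-06, and -2.69, adjusted p = 1.20e-05) and is named after its values were seen.

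Of 15 other desmosome genes listed, 11 were tested, the others being Dsg1a, Dsg1b, Dsg1c and Dsc1, with at most 69.7 normalized counts in any library. Dsg1c had 6.96, 26.1 and 69.7 in control, 5.01, 3.39 and 0.91 in LATS1/2-KO, and 0, 0 and 4.55 in LATS1/2-Sox9-KO libraries, below every control library. Perp, a membrane protein of desmosomes and a p63 target in skin, rose (log2 fold change 2.06, edgeR adjusted p = 6.54e-05, and 2.76, adjusted p = 1.01e-05). Jup, plakoglobin, which binds the cadherin tails, went the other way, at 41648, 38064 and 34634 normalized counts in control, 16181, 10212 and 17505 in LATS1/2-KO, and 21193, 18868 and 19119.7 in LATS1/2-Sox9-KO libraries. It fell in LATS1/2-KO (-1.38, adjusted p = 0.000154) and missed the fold threshold in LATS1/2-Sox9-KO libraries (-0.95, adjusted p = 0.00132), where it was called without control replicate 3 (-1.01, adjusted p = 0.00222). Cdsn, corneodesmosin, rose from low counts (2.54, adjusted p = 0.00532, and 2.27, adjusted p = 0.00890). Dsp, desmoplakin, and the plakophilins Pkp1, Pkp2 and Pkp3 stayed under the fold threshold, between 0.39 and 0.82, and Pkp4 was at -0.32 and -0.96. Without control replicate 3, both Dsp (1.02, adjusted p = 0.000582) and Pkp4 (-1.01, adjusted p = 0.000654) were called in LATS1/2-Sox9-KO libraries, as was Pkp4 without LATS1/2-Sox9-KO replicate 1 (-1.02, adjusted p = 0.000697).

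Between the deletion genotypes, which differ by their floxed Sox9 allele although Sox9 counts were not shown to differ, 13 of the 90 other genes were higher in LATS1/2-Sox9-KO and 1 was lower, and the median log2 fold change was 0.43 against -0.02 over all genes tested. This is 15.6% of the list, where 3.71% of all genes were called. Cnfn, among the 13, and Lce1g, which was not called, passed the filter through LATS1/2-Sox9-KO libraries alone and could only be higher. With both left out, 13 of 88 were called in either direction, which is 14.8%. The count of 13 called higher fell to 6 without LATS1/2-KO replicate 3 or without LATS1/2-Sox9-KO replicate 2. The genes called higher were 8 granular and cornified, 4 spinous, 2 desmosome and 1 basal gene, some of them in more than 1 list. Ppl and Evpl, periplakin and envoplakin, which link the envelope to desmosomes and keratin, led the desmosome genes. Ppl had 17156, 18636 and 19101 normalized counts in LATS1/2-KO and 43176, 56764 and 51662 in LATS1/2-Sox9-KO libraries (1.47, edgeR adjusted p = 0.00140), after a rise over control in both (1.44, adjusted p = 1.97e-05, and 2.90, adjusted p = 5.50e-07). Evpl had 4729, 2978 and 4125 in LATS1/2-KO and 11705, 11053 and 10097 in LATS1/2-Sox9-KO libraries (1.47, adjusted p = 0.00268), on either side of the 6165 to 7542 of control.

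The spinous gene Scel, sciellin, another envelope precursor, had 138, 107.6 and 62.9 normalized counts in LATS1/2-KO and 657, 1979 and 1941 in LATS1/2-Sox9-KO libraries (log2 fold change 3.89, edgeR adjusted p = 0.00416), from at most 2.49 in control. Krt16, a keratin of activated keratinocytes, had 332, 230.5 and 284 and then 2351, 2036 and 1955 (2.91, adjusted p = 0.000867), with 391 to 597 in control. All LATS1/2-Sox9-KO libraries of both genes lay above all others. Klk8 and Klk10, kallikrein proteases of the kind that shed cornified cells, were higher too (2.33, adjusted p = 0.00729, and 1.94, adjusted p = 0.0113). Their own calls in LATS1/2-KO against control (1.22, adjusted p = 0.0118, and 1.29, adjusted p = 0.00676) were lost for Klk8 without LATS1/2-KO replicate 1 (0.74) and for Klk10 without replicate 2 (0.99). The single gene called lower was Satb1, a chromatin organizer and p63 target in the epidermis, with 246, 406 and 549.95 against 90.04, 68.8 and 78.3 (-2.34, adjusted p = 0.00702).

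Further calls rested on fewer libraries. Cnfn, cornifelin, had 0, 1.69 and 0.91 normalized counts in LATS1/2-KO and 81.7, 51.8 and 49.2 in LATS1/2-Sox9-KO libraries (count ratio 66.6, 95% exact counting interval 22.5 to 326, which covers counting error only). It passed the filter through the LATS1/2-Sox9-KO libraries alone, so no test is drawn from its call. Zfp750, a p63 target that drives terminal differentiation, had 660, 684 and 644 and then 1656, 2064 and 1625 (log2 fold change 1.43, edgeR adjusted p = 0.0159), after a fall from 3382, 3841 and 1657 in control (-2.16, adjusted p = 0.000104). Between the deletion genotypes, the calls of Cnfn and Zfp750 were both lost without LATS1/2-KO replicate 3 (adjusted p = 0.0643 for Zfp750) and without LATS1/2-Sox9-KO replicate 2 (adjusted p = 0.0649 for Zfp750). The calls of Csta1, Ly6d, Nipal4, Cers3 and Casp1 (log2 fold changes from 1.22 to 2.24) were each lost without either of these libraries too. Csta1 was also lost without LATS1/2-KO replicate 2 or LATS1/2-Sox9-KO replicate 3, Nipal4 without LATS1/2-Sox9-KO replicate 1 or 3, Ly6d without LATS1/2-Sox9-KO replicate 1 and Cers3 without LATS1/2-Sox9-KO replicate 3. With the replicate number as a block, the edgeR adjusted p was 0.0628 for Csta1 and 0.0567 for Nipal4. Trp63 itself had a log2 fold change of 0.64 (standard error 0.65, 0.34 to 1.06 in the alternatives) between the deletion genotypes, with overlapping libraries. Its part in the values of these genes was not tested.

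**Figure D4:**
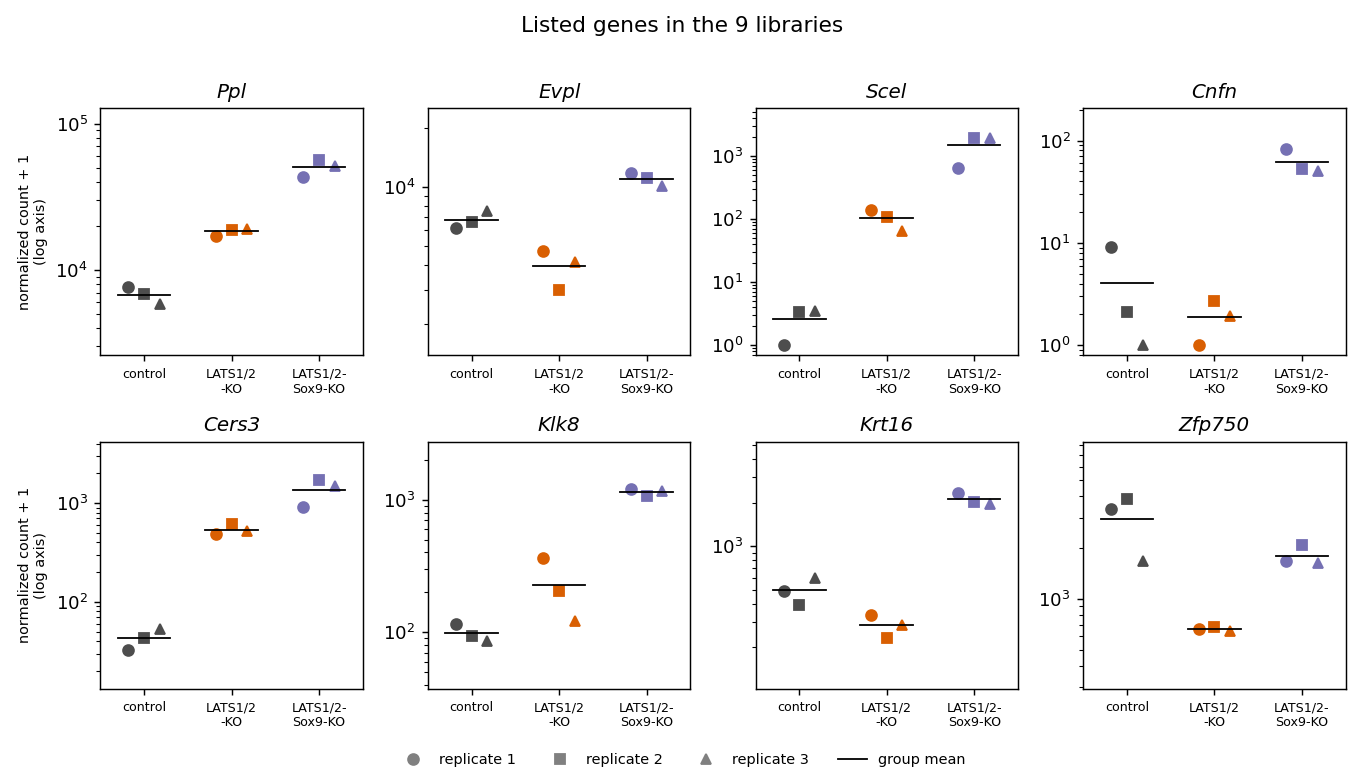
Normalized counts + 1 (log axis, a separate scale per gene) of 8 listed genes in each library, by genotype, with replicates as circles, squares and triangles and the group mean as a line. Ppl, Scel and Cers3 step up from control through LATS1/2-KO to LATS1/2-Sox9-KO, whereas Evpl, Krt16 and Zfp750 are lowest in LATS1/2-KO.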

How the data were processed

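RNA-seq reads of 9 libraries were aligned by the authors to mm10 (GRCm38) with STAR 2.6.0c, and uniquely aligned proper pairs were assigned to Ensembl genes with featureCounts (Subread 1.6.2), mitochondrial genes left out. The deposited values are raw counts per gene and library, without normalization. The sample labels give groups and replicate numbers but do not say that the libraries came from separate animals, so p-values measure the spread between these samples, which may be technical. Symbols, positions and exon lengths were taken from GENCODE M21 (208 of 209 listed symbols found).

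Counts were analysed in R 4.3.3 with edgeR 4.0.16 (filterByExpr, TMM, quasi-likelihood fit of 3 group means over all 9 libraries), with p-values adjusted by Benjamini-Hochberg over 19357 genes. An exact permutation test of 3 against 3 libraries cannot go below 0.1. Alternatives were DESeq2 1.42.0, RLE factors, no filter or a CPM of at least 1 in at least 3 libraries, a fit of only the 2 groups compared, a block for replicate number, leaving out each library, and glmTreat against a fold change of 2. The code was tested on simulated counts.

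The 10 genes and the lists were chosen with earlier results of these data known. Other genes named were the targeted genes, all desmosome genes, Trp53, Trp73 and defining layer genes, and for the spinous, granular, basal, transglutaminase and caspase lists up to 4 called genes per comparison with the largest change and a mean normalized count of at least 50. For Trp63 and Casp14 these were also the 5 genes with the most similar log2 CPM (prior count 2, mean of at least 2). Values of Krt18, Dcn, Cidec, Kdr, Col3a1, Col6a3 and Ankrd1 were given as marker or pattern genes, and Krt4, Krt6a, Krt6b, Krt78, Krt80 and Aloxe3 were added after their values were seen. Motifs were matched by letters in RefSeq promoters. Protein sequences and deleted exons were not analysed here. Some single-gene values are not reported here.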

Additional observations from a re-analysis of the deposited data

How the results depend on the processing

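Depth limits the genes with few or no counts in a group (Ivl in LATS1/2-KO, and Casp14, Dsg3 and Dsc3 in control), and precision rests on the 3 libraries of each group. The 10 genes kept the sign of their log2 fold change against control in all alternatives that gave a value, except Ivl in LATS1/2-Sox9-KO, which turned to 0.98 without control replicate 3. Between the deletion genotypes, signs changed for Sprr1a, Sbsn and Dsc3, whose values ranged from -0.08 to 1.19, -0.49 to 0.97 and -0.03 to 0.72. Dsc2 ranged from 0.89 to 1.31 there, and its call was lost without LATS1/2-KO replicate 2 or 3 and without LATS1/2-Sox9-KO replicate 2 or 3. In LATS1/2-KO against control, Dsc2 was called in 3 of the 6 fits that each left out 1 library. It was also called there with the block and in the fit of only the compared groups. Between the deletion genotypes, Dsg3 was called without LATS1/2-Sox9-KO replicate 1, with DESeq2 and with no filter, and Ivl with DESeq2. Krt5 in LATS1/2-KO against control, near 0 with all libraries, ranged from -0.21 to 0.42 when 1 library was left out, and Krt4, not called there, from -1.216 to 0.026.

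When glmTreat tested the fold change of 2 itself, 1962 genes were higher and 2043 lower in LATS1/2-KO than in control (19 listed genes higher, 17 lower). In LATS1/2-Sox9-KO against control these were 2240.0 and 2468 (29 listed genes higher, 17 lower). Between the deletion genotypes they were 18 and 14 (2 listed genes higher, 0 lower). By the main test these last counts were 301 and 418. With glmTreat, the call of Dsg2 in LATS1/2-KO against control was lost. Between the deletion genotypes that of Dsc2 was lost. Those of Ppl, Evpl, Klk8, Klk10 and Satb1 were lost there too (glmTreat adjusted p from 0.0996 to 0.206). DESeq2 gave 489 genes higher and 744 lower between the deletion genotypes. Requiring a CPM of at least 1 gave 2 listed genes lower there in place of 1. Leaving out 1 library gave 121 to 497 genes higher and 78 to 582 lower in that comparison, with 6 to 17 listed genes higher and 1 to 2 lower. The lowest counts came without LATS1/2-KO replicate 3 (121 higher) and without LATS1/2-Sox9-KO replicate 2 (78 lower). The cause was not tested.

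Same-numbered libraries did not deviate together, with correlations from -0.07 to 0.17 over the 3 comparisons, so the numbers were not taken to pair them. With the replicate block, 3193 genes were higher and 3328 lower in LATS1/2-KO, 3399 and 3688 in LATS1/2-Sox9-KO against control, and 265 and 336 between the deletion genotypes, with 12 listed genes higher and 1 lower there. The choice of scaling moved the median log2 fold change of all genes by less than 0.1.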
